A study of Mus musculus with 4 samples.

Results

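Noncoding snoRNA host transcripts were examined in cultured neural stem/progenitor cells (NSCs), wild-type or lacking Chd5. Small nucleolar RNAs (snoRNAs) guide the chemical modification of ribosomal RNA, and most mouse snoRNAs are cut out of the introns of longer host transcripts. Box C/D snoRNAs guide 2'-O-methylation by the methyltransferase fibrillarin, and box H/ACA snoRNAs guide pseudouridylation by dyskerin. Some hosts encode ribosomal proteins or other parts of the translation machinery, whereas the Snhg (small nucleolar RNA host gene) transcripts and Gas5 (growth arrest-specific 5) have spliced exons with little or no conserved protein-coding content. The spliced RNA of Gas5 and of several other such hosts is exported, bound by ribosomes and degraded by nonsense-mediated decay, so its level is set by both synthesis and decay.

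The members were fixed by name as Snhg1, Snhg3, Snhg5, Snhg6, Snhg7, Snhg8, Snhg11, Snhg12, Gas5 and Zfas1. Of these 10 names, 8 were found among the 18169 rows of the expression table, each in 1 row. No row was named Snhg8 or Zfas1, and these were skipped. RNA-seq covered 2 +/+ and 2 Chd5-/- samples, numbered replicate 1 and 2 within each genotype. Each culture was started from the tissue around the ventricles of 1 newborn C57BL/6 brain and was kept in proliferation medium with epidermal growth factor and fibroblast growth factor 2. The Chd5-/- mice came from an existing Chd5-deficient line, and both genotypes shared the strain, medium and culture. The growth protocol gives postnatal day 1 for all cultures, but the age entries are day 1 (+/+ replicate 1), day 2 (+/+ replicate 2), day 3 (Chd5-/- replicate 1) and day 4 (Chd5-/- replicate 2), so by these entries age and genotype cannot be told apart. The libraries were made from polyadenylated RNA. The values are TPM, a level scaled for transcript length that adds to the same total in each sample and keeps no record of read number, so the depth is unknown and no counting error is given.

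Chd5, the targeted chromatin remodeler, was at 0.39 and 0.37 TPM in +/+ NSCs and at 0.06 and 0.04 TPM in Chd5-/- NSCs, all below the mean of 1 TPM required for testing. All 10 neural stem cell markers looked for were found, and their summed level was 8007 and 6570 TPM in +/+ NSCs and 3546 and 5945 TPM in Chd5-/- NSCs. Fabp7 made up most of this sum, at 5892 and 4316 TPM in +/+ and 1939 and 3822 TPM in Chd5-/- samples. The median log2 fold change of the 10 markers was -0.077, against 0.34 over all rows tested. Both Chd5-/- samples were below for 3 (Fabp7, Sox2 and Vim), against 13% of all rows, and above for Egfr, against 46.3%. The other 6 overlapped. Hes5 and Prom1 differed widely between the Chd5-/- samples, with Hes5 at 1.16 and 43.69 TPM and Prom1 at 45.27 and 3.20 TPM. The summed level of 6 astrocyte markers was 2276 and 2208 TPM in +/+ NSCs and 624 and 1680 TPM in Chd5-/- NSCs, and that of 8 neuron markers was between 520 and 555 TPM in 3 samples and 919 TPM in Chd5-/- replicate 2. The 7 oligodendrocyte lineage markers summed to between 504 and 928 TPM. Microglia markers, of which 3 of 6 names were found, summed to between 0.32 and 0.75 TPM. Mesenchymal and vascular markers, of which 6 of 8 names were found, summed to 17.83 TPM in Chd5-/- replicate 1, most of it from Acta2 and Col3a1, and to between 0.37 and 0.43 TPM in the other samples. The part of these differences in the results below was not tested.

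The 8 hosts carry 30 loci of the annotated type snoRNA on their own strand. Gas5 holds 9 and Snhg1 holds 8, Snhg12 holds 4, Snhg6 holds 1, and Snhg3, Snhg5, Snhg7 and Snhg11 hold 2 each. Among those of Gas5 is Mir5117, which has a microRNA name but is typed as a snoRNA in GENCODE release M21. For the 28 loci in hosts with annotated exons, at least 1 host transcript has no exon there. Most of these snoRNAs have no row under their GENCODE release M21 name. The sequences of 5 resident snoRNAs are shown, as taken from GENCODE release M21 of GRCm38. Snord47 belongs to the most abundant host, Snord87 is the single snoRNA of Snhg6, and the remaining ones have rows in the table. Capitals mark the TGATGA of box C and the CTGA of box D in the box C/D snoRNAs, and the ACA box near the 3' end in the box H/ACA snoRNAs.

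Snord47: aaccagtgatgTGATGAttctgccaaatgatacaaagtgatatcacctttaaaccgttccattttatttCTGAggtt
Snord87: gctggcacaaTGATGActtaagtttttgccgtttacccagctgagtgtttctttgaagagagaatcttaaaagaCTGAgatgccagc
Snora16a: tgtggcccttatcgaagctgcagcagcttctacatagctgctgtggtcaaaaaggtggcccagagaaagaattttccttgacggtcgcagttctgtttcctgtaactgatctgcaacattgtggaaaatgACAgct
Snora43: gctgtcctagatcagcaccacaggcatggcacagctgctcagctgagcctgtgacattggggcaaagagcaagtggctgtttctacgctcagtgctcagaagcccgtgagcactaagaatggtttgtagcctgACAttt
Snora17: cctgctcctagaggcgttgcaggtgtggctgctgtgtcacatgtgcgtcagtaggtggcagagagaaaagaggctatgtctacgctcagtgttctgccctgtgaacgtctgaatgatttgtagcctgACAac

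Snord47 lies at chr1:161038082-161038158 on the plus strand within Gas5, and Snord87 at chr1:9942463-9942549 on the minus strand within Snhg6. Snora16a lies at chr4:132309465-132309600 on the plus strand within Snhg12. Snora43 at chr2:26637847-26637985 and Snora17 at chr2:26639190-26639321 lie on the minus strand within Snhg7.

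**Figure D1:**
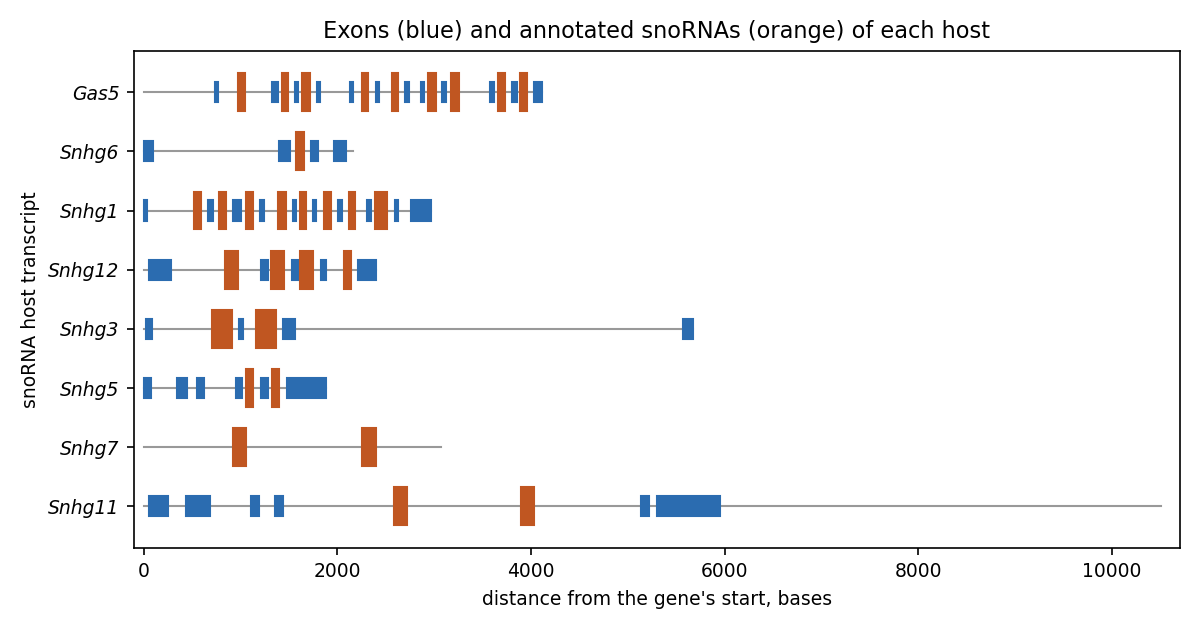
Position of exons (blue) and annotated snoRNAs (orange) along each host, as distance in bases from the gene's start in the direction of transcription, with the exons of the transcript that has the most exons. Snhg7 is drawn without exons because GENCODE release M21 has no entry of that name, and Gas5 and Snhg1 carry the most snoRNAs, with 9 and 8.

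Host genes of this kind are known for promoters whose transcripts start in a tract of pyrimidines, the 5' terminal oligopyrimidine (TOP) feature that they share with ribosomal protein genes. RefSeq promoter sequences of GRCm38.p6 were found for 7 of the 8 hosts, with 2 annotated starts for Gas5 and so 8 promoters. The motifs were chosen after the sequences had been seen. A run of at least 6 C or T within 25 bases of the start occurred on the transcribed strand in 5 of the 8 promoters, against 43.9% of all 32851 promoters in the table. The letters TATAA occurred on the transcribed strand between 60 bases before and 50 bases after the start in 4 of the 8, those of Snhg3, Snhg5, Snhg7 and Snhg12, against 7.45% of all promoters. Over the full length of the promoters in the table these letters occurred on the transcribed strand in 4 of the 8 and 17.5% of all, and on either strand in 6 of the 8 and 24.9% of all. A match is a description of these letters and not evidence of a bound factor. The windows of the 5 hosts with a pyrimidine run and of Snhg11, which had neither motif, are shown from 60 bases before the start, with TATAA and the pyrimidine run in capitals.

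Gas5: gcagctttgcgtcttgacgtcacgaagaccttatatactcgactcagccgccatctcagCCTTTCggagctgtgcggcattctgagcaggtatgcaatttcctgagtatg
Snhg1: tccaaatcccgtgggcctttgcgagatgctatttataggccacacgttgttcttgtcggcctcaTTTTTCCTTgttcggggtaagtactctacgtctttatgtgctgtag
Snhg5: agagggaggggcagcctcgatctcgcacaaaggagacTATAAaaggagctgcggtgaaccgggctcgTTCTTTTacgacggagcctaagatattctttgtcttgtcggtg
Snhg7: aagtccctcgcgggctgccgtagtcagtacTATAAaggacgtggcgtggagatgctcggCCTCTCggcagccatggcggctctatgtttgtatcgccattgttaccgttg
Snhg12: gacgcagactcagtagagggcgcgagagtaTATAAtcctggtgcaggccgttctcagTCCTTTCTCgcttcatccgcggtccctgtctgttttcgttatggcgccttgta
Snhg11: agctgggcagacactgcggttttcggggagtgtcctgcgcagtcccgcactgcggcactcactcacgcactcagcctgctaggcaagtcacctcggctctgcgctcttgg

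These windows lie at chr1:161035106-161035215 (plus strand) for the downstream start of Gas5, chr19:8723427-8723536 (plus) for Snhg1, chr9:88522848-88522957 (minus) for Snhg5, chr2:26640195-26640304 (minus) for Snhg7, chr4:132308618-132308727 (plus) for Snhg12 and chr2:158375653-158375762 (plus) for Snhg11. TATAA began 30 bases before the start in Snhg7 and Snhg12 and 23 bases before it in Snhg5, whereas in Snhg3 it began 22 bases after the start. The pyrimidine run was longest in Snhg1 and Snhg12, at 9 bases each.

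The level of the hosts spanned a wide range in the NSCs. In +/+ samples the order of mean TPM was Gas5, Snhg6, Snhg1, Snhg3, Snhg12, Snhg5, Snhg7 and Snhg11, and no neighbours in this order overlapped between their samples. In Chd5-/- samples Snhg1 and Snhg6 overlapped, as did Snhg12 and Snhg3, and the other neighbours did not. Among the 12576 rows that averaged 1 TPM or more, 98.1% had a lower mean level than Gas5, 94.0% than Snhg6 and 91.8% than Snhg1. The summed level of the 8 hosts was 965.2 and 644.74 TPM in +/+ NSCs. It was 1159 and 1152.92 TPM in Chd5-/- NSCs, above both +/+ values. Gas5 made up between 42.8% and 64.6% of this sum, and Chd5-/- replicate 2 had the highest share of Gas5 and the lowest of Snhg6, at 10.5% against 22.1% to 27.6% in the other samples.

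**Figure D2:**
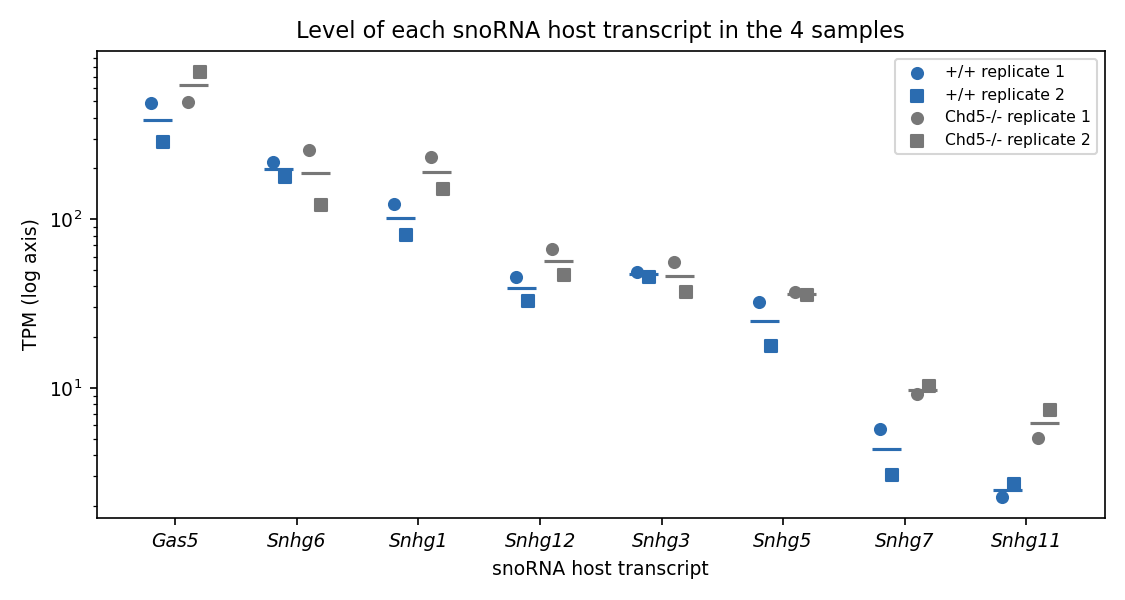
Level of each host in TPM (log axis) in the 4 samples, with +/+ in blue, Chd5-/- in grey, replicate 1 as circles, replicate 2 as squares, and a bar at the mean of each genotype. Both Chd5-/- samples lie above both +/+ samples for 6 of the 8 hosts, and the genotypes overlap for Snhg6 and Snhg3.

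The effect of Chd5 loss was examined with limma on log2(TPM + 1) over the 12576 rows, all 8 hosts among them. On this scale a log2 fold change is the Chd5-/- mean minus the +/+ mean, and it understates the change of rows with low TPM. Both Chd5-/- samples were above both +/+ samples for 6 of the 8 hosts, against 46.3% of all rows tested, and both were below for 0 hosts, against 13% of all rows. With limma, 0 hosts had a Benjamini-Hochberg adjusted p under 0.05, as had 0.0557% of all rows. An unadjusted p under 0.05 was reached by 3 hosts, Snhg1, Snhg7 and Snhg11, all higher in Chd5-/- NSCs, against 21.9% of all rows higher, 2.27% lower and 24.1% in either direction. This number was 1 without +/+ replicate 1, against 12.7% of all rows in that fit, 0 without +/+ replicate 2, against 6.39%, 3 without Chd5-/- replicate 1, against 35.3%, and 2 without Chd5-/- replicate 2, against 31.5%. The 3 hosts without Chd5-/- replicate 1 were Gas5 and Snhg11, higher, and Snhg6, lower, and the 2 without Chd5-/- replicate 2 were Snhg1 and Snhg12. The log2 fold change was above 0 for 6 of 8 hosts, against 70.4% of all rows. It reached 1, a 2-fold difference, in 2 hosts, Snhg7 and Snhg11, as in 18.5% of all rows in this direction. With 2 samples per genotype an exact permutation test of a single value cannot go below p = 0.333. In cultures measured in bulk, fewer cells of a type and less RNA per cell cannot be told apart.

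**Figure D3:**
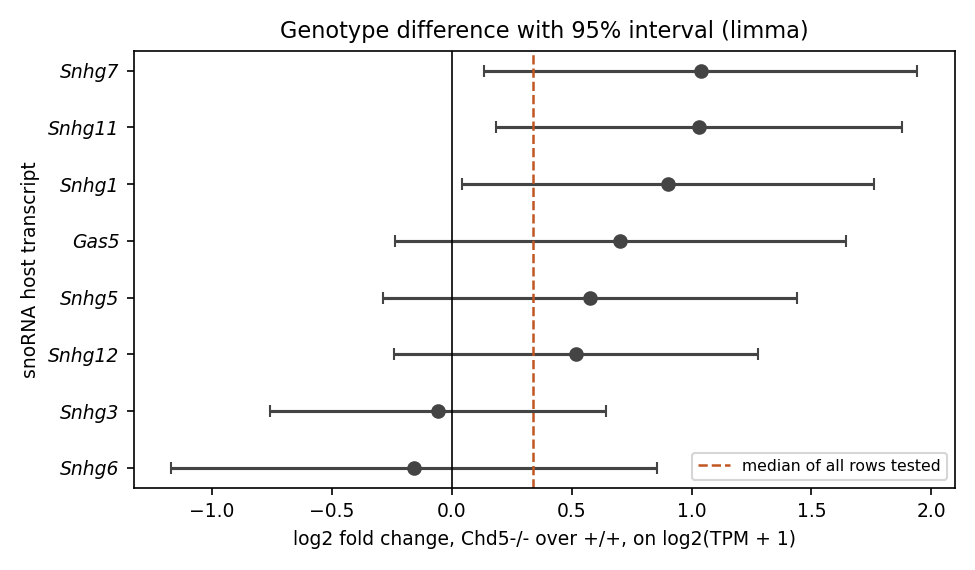
Log2 fold change of each host, Chd5-/- over +/+, on log2(TPM + 1), with points at the estimate and bars as the 95% interval from limma, ordered by size. The intervals of Snhg7, Snhg11 and Snhg1 lie above 0, those of the other 5 hosts include 0, and the dashed line marks the median of all rows tested, 0.34.

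Gas5, which accumulates in growth-arrested cells and carries box C/D snoRNAs, lies at chr1:161034422-161038539 on the plus strand. Its level was 488.95 and 284.97 TPM in +/+ NSCs, and 496.20 and 745.01 TPM without Chd5. There was no overlap, but Chd5-/- replicate 1 was close to +/+ replicate 1. The means were 387 ± 144 and 621 ± 176 TPM (SD, n = 2), and the log2 fold change was 0.70 (SE 0.37, 95% interval -0.24 to 1.64, limma adjusted p = 0.307). It was 1.09 without +/+ replicate 1, 0.31 without +/+ replicate 2, 0.41 without Chd5-/- replicate 2 and 0.33 after median-of-ratios scaling.

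Snhg1, first known as the host of the U22 snoRNA, lies at chr19:8723475-8726443 on the plus strand. It was at 123.13 and 80.46 TPM in +/+ and at 233.19 and 149.92 TPM in Chd5-/- samples. Replicate 1 was the higher one within each genotype, and the lower Chd5-/- sample was still above the higher +/+ sample. This gave a log2 fold change of 0.90 (SE 0.34, 95% interval 0.043 to 1.76, limma unadjusted p = 0.0427, adjusted p = 0.194). It was 0.60 without +/+ replicate 2, 0.59 without Chd5-/- replicate 1 and 0.53 after median-of-ratios scaling.

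Snhg5, the host of the U50 snoRNAs Snord50a and Snord50b, lies at chr9:88521050-88522929 on the minus strand. It was at 32.32 and 17.61 TPM in +/+ and at 36.97 and 35.38 TPM in Chd5-/- samples. The Chd5-/- samples were close to each other and above both +/+ samples, of which replicate 2 was far lower. On the log2 scale the difference was 0.58 (SE 0.34, 95% interval -0.29 to 1.44, limma adjusted p = 0.348). This became 1.00 without +/+ replicate 1, 0.16 without +/+ replicate 2, and 0.22, 0.29 and 0.35 after median-of-ratios scaling, quantile normalization and rescaling.

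Snhg6, which carries Snord87, lies at chr1:9941959-9944118 on the minus strand. It was at 218.52 and 177.63 TPM in +/+ and at 256.29 and 121.61 TPM in Chd5-/- samples. The Chd5-/- samples were the highest and the lowest of the 4, so the genotypes overlapped. The log2 fold change was -0.16 (SE 0.40, 95% interval -1.17 to 0.86, limma adjusted p = 0.831). Without Chd5-/- replicate 2 it was 0.38 and without Chd5-/- replicate 1 it was -0.69, so its direction depended on which Chd5-/- sample was used. Of its 1146 exonic bases, 127 are shared with Mcmdc2 on the opposite strand, and it is not stated whether strand was used in counting.

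The hosts of box H/ACA snoRNAs differed among themselves. Snhg3, at chr4:132348014-132353686 on the minus strand, carries Snora73a and Snora73b, the U17 snoRNAs, which act in the cleavage of precursor ribosomal RNA. It was at 48.91 and 45.57 TPM in +/+ and at 55.44 and 36.99 TPM in Chd5-/- samples. The +/+ samples were close together and the Chd5-/- samples lay on either side of them. The log2 fold change was -0.058 (SE 0.28, 95% interval -0.76 to 0.64, limma adjusted p = 0.912), and it was 0.23 without Chd5-/- replicate 2. Its value is uncertain because 135 of its 986 exonic bases are shared with Rcc1 on the same strand and 705 with Gm17300 on the opposite strand. Rcc1, the exchange factor for the GTPase Ran, was at 13.07 and 9.14 TPM in +/+ and at 14.98 and 12.11 TPM in Chd5-/- samples, which overlapped.

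Snhg12, at chr4:132308623-132311024 on the plus strand, carries both snoRNA classes. It was at 45.42 and 32.75 TPM in +/+ and at 66.70 and 46.39 TPM in Chd5-/- samples. Here Chd5-/- replicate 2 was barely above +/+ replicate 1, and replicate 1 was again the higher one in each genotype. The log2 fold change was 0.52 (SE 0.30, 95% interval -0.24 to 1.28, limma adjusted p = 0.341). It was 0.29 without +/+ replicate 2, 0.26 without Chd5-/- replicate 1, and 0.15 with median-of-ratios scaling. Quantile normalization gave 0.31, and rescaling gave 0.29.

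Snhg7 and Snhg11 were the least abundant hosts, and in the deposited scaling with a pseudocount of 1 had the highest log2 fold changes. With a pseudocount of 5 Snhg1 (0.88) and Gas5 (0.70) were above Snhg7 (0.66) and Snhg11 (0.58), and after quantile normalization Snhg1 and Gas5 were again above both. Snhg7, which carries Snora43 and Snora17, lies at chr2:26637176-26640244 on the minus strand. It was at 5.68 and 3.05 TPM in +/+ and at 9.18 and 10.22 TPM in Chd5-/- samples, with both Chd5-/- samples well above the +/+ samples. The difference was 1.04 on the log2 scale (SE 0.36, 95% interval 0.14 to 1.94, limma unadjusted p = 0.0314, adjusted p = 0.174). Without +/+ replicate 2 it was 0.68, and after quantile normalization it was 0.41.

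Snhg11, at chr2:158375638-158386145 on the plus strand, is annotated as protein-coding in GENCODE release M21 despite its name, and had the highest GC content of the hosts with annotated transcripts, a median of 54.4% against 41.2% to 47.8% for the other 6. It was at 2.27 and 2.70 TPM in +/+ and at 5.03 and 7.40 TPM in Chd5-/- samples. The +/+ samples were close to each other, and each Chd5-/- sample was above both. The estimated log2 fold change was 1.03 (SE 0.33, 95% interval 0.19 to 1.88, limma unadjusted p = 0.0254, adjusted p = 0.165). With trends with GC content and transcript length removed it was 0.31, and after quantile normalization it was 0.35.

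The samples of 1 genotype also differed from each other. In the +/+ samples replicate 1 was above replicate 2 for 7 of the 8 hosts, all but Snhg11, and for 8284 of all 12576 rows tested. The median difference was 0.53 on log2(TPM + 1), against 0.14 over all rows tested. Between the Chd5-/- samples replicate 1 was the higher one for 5 hosts, Snhg1, Snhg3, Snhg5, Snhg6 and Snhg12, and the lower one for Gas5, Snhg7 and Snhg11. Over all 12576 rows it was the higher one for 6260. The median difference was 0.29, against -0.0021 over all rows.

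The median log2 fold change of the 8 hosts was 0.64, against 0.34 over all rows tested. TPM adds to a fixed total, and the 20 most abundant rows held 32.4% and 35.6% of it in +/+ NSCs, against 21.6% and 22.8% in Chd5-/- NSCs. Relative to the median of all rows, the difference was 0.70 for Snhg7, 0.69 for Snhg11, 0.56 for Snhg1, 0.36 for Gas5, 0.24 for Snhg5, 0.18 for Snhg12, -0.40 for Snhg3 and -0.50 for Snhg6. After median-of-ratios scaling, which brought the median of all rows to 0.0052, the median of the hosts was 0.27 and 0 hosts had an unadjusted p under 0.05 with limma, against 22.4% of all rows. The rows with an unadjusted p under 0.05 were then 1508 higher and 1311 lower, in place of 2748 higher and 285 lower. After quantile normalization the host median was 0.33 with 0 hosts at this threshold, against 16.9% of all rows, and after rescaling without the 20 most abundant rows it was 0.41 with 1 host, Snhg11, against 21.4%. With GC and length trends removed it was 0.35 over 7 hosts, of which Snhg1 reached an unadjusted p under 0.05, as did 11.2% of all rows, and 608 rows were higher and 749 lower. Under each of these scalings 6 hosts lay above the median of all rows, with Snhg3 among them and Snhg7 not measured once the GC and length trends were removed. The excess of the host median over that of all rows was 0.56 without +/+ replicate 1, 0.042 without +/+ replicate 2, 0.22 without Chd5-/- replicate 1 and 0.36 without Chd5-/- replicate 2.

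**Figure D4:**
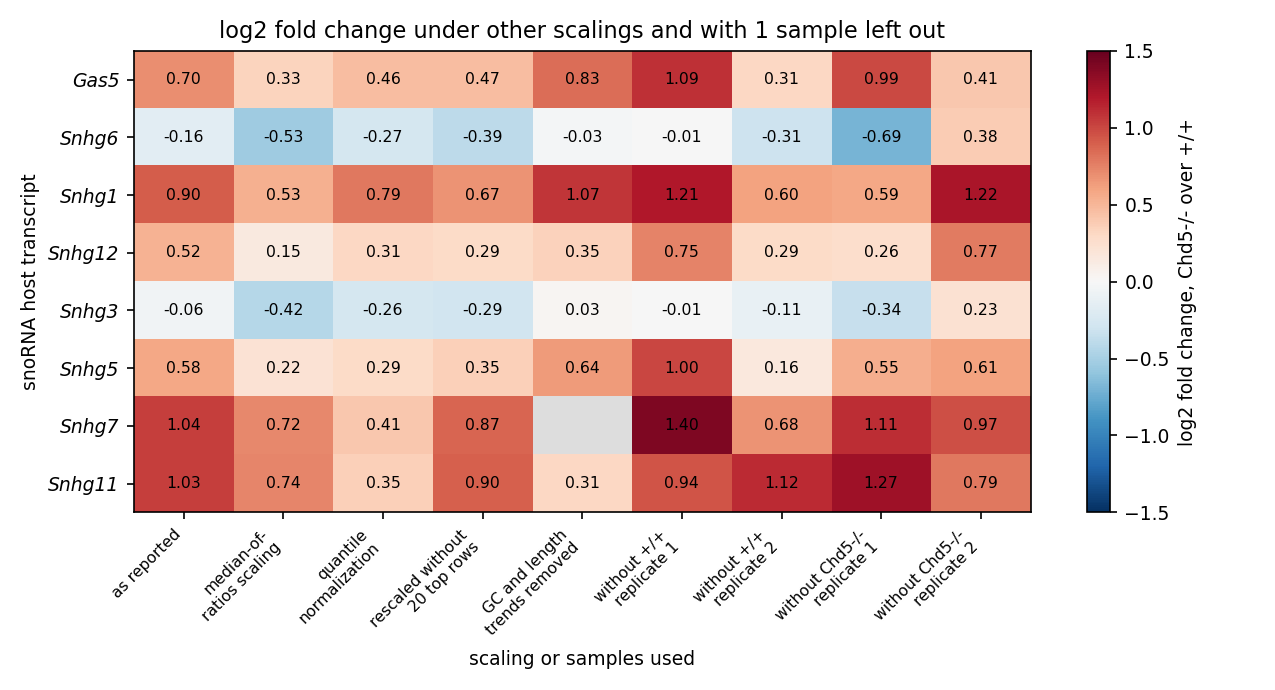
Log2 fold change, Chd5-/- over +/+, of each host (vertical axis) as deposited, under 4 other scalings and with 1 sample left out (horizontal axis), in colour and as numbers. Gas5, Snhg1, Snhg12, Snhg5, Snhg7 and Snhg11 stay above 0 in every column that has a value, Snhg3 and Snhg6 change sign, and the grey cell marks Snhg7, which has no GC value.

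The snoRNAs themselves gave few values. Only 3 of the 30 snoRNA loci had rows under their GENCODE release M21 names, the box H/ACA snoRNAs whose sequences are given above. Rows under other symbols of the same snoRNAs were not looked for. Libraries of polyadenylated RNA are not made to capture snoRNAs. Snora43, in Snhg7, was listed at 0 TPM in both +/+ samples. It was at 23.80 and 11.72 TPM without Chd5, and its host Snhg7 was higher in the same samples. The difference on log2(TPM + 1) was 4.15, which depends on the pseudocount because of the values at 0 (limma adjusted p = 0.120). Snora17, in the same host, was at 10.64 TPM in +/+ replicate 1 and was listed at 0 in the other 3 samples. Snora16a, in Snhg12, was at 8.77 and 12.23 TPM in +/+ and at 0 and 26.89 TPM in Chd5-/- samples, which overlapped. Reads from a host's unspliced RNA can fall on the same bases, so these rows and their hosts are not independent.

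Genes that start close to a host on the opposite strand were read beside it. Slc3a2, the heavy chain of an amino acid transporter, starts 106 bases from Snhg1 and was at 97.25 and 72.62 TPM in +/+ and at 160.64 and 97.39 TPM in Chd5-/- samples. The lower Chd5-/- sample was just above the higher +/+ sample, and, as for Snhg1, replicate 1 was the higher one in each genotype (log2 fold change 0.57, limma adjusted p = 0.339). Zbtb37, which starts 427 bases from Gas5, was at 10.42 and 7.81 TPM in +/+ and at 9.33 and 9.78 TPM in Chd5-/- samples, and overlapped between genotypes with a log2 fold change of 0.073. Its exons share 0 bases with those of Gas5.

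The row 1500012F01Rik carries a name that RefSeq lists as an older symbol of Zfas1. It was not counted among the 8 hosts. It was at 38.15 and 21.77 TPM in +/+ and at 63.84 and 96.95 TPM in Chd5-/- samples. No overlap was seen, and the log2 fold change was 1.42 (SE 0.37, 95% interval 0.48 to 2.35, limma adjusted p = 0.130), above that of each of the 8 hosts. Without Chd5-/- replicate 1 it was 1.71 with an adjusted p of 0.0455 from limma, and over all 16 alternatives the adjusted p ranged from 0.0455 to 0.759. Znfx1 starts 81 bases from Zfas1 on the opposite strand and shares 82 exonic bases with it. Znfx1, an RNA helicase-like gene, was at 4.34 and 3.72 TPM in +/+ and at 7.47 and 9.99 TPM in Chd5-/- samples, which did not overlap (log2 fold change 0.94, limma adjusted p = 0.165).

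Other snoRNA hosts were described by their counts and median. Of 13 further noncoding host names 8 were found and tested, with a median log2 fold change of 0.68, and 2 of them had an unadjusted p under 0.05, both higher, near the 21.9% of all rows higher. Both Chd5-/- samples were above for 3 of the 8, against 46.3% of all rows, and below for 0, against 13%. The highest was 2410006H16Rik, at 90.24 and 46.10 TPM in +/+ and at 184 and 162.69 TPM in Chd5-/- samples (log2 fold change 1.41, limma adjusted p = 0.129), and the lowest was Snhg9 with -0.69 (adjusted p = 0.566). Without +/+ replicate 2 the median of these hosts was 0.11, against 0.26 over all rows. Of the imprinted hosts, 1 row was abundant enough for testing, Snhg14, the host of the Prader-Willi region snoRNAs, which was at 11.60 and 10.68 TPM in +/+ and at 8.04 and 8.94 TPM in Chd5-/- samples, both below (limma adjusted p = 0.441).

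All 21 ribosomal protein genes known as snoRNA hosts had both Chd5-/- samples above both +/+ samples, against 46.3% of all rows, and 15 had an unadjusted p under 0.05, all higher, against 21.9%. Their median log2 fold change was 0.91, with a range from 0.27 for Rpl30 to 1.85 for Rpl7a (limma adjusted p = 0.585 and 0.120). After median-of-ratios scaling the median was 0.53, against 0.0052 over all rows. An unadjusted p under 0.05 with limma was then reached by 8, all higher, and by 1508 of all 12576 rows in this direction. Without +/+ replicate 2 the median was 0.58, against 0.26 over all rows. The 16 other protein-coding hosts had a median of -0.0022, below that of all rows, from -0.64 for Nop58, a core protein of box C/D particles, to 1.71 for Gnb2l1, the ribosomal scaffold RACK1 (adjusted p = 0.341 and 0.120). Of these 16, 5 had both Chd5-/- samples above, against 46.3% of all rows, and 2 both below, near the 13% of all rows. An unadjusted p under 0.05 with limma was reached by 1, higher, against 21.9% of all rows. Without Chd5-/- replicate 1 the median was -0.19, against 0.35 over all rows. Without Chd5-/- replicate 2 it was 0.32, 0.012 below that of all rows. Without +/+ replicate 1 or 2 it was 0.11 or -0.12, against 0.41 or 0.26 over all rows.

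Among genes for proteins that bind snoRNAs some were higher and others lower. Of 10 box C/D particle genes tested, 5 had both Chd5-/- samples above, near the 46.3% of all rows, and 3 both below, against 13%. Their median was 0.22, against 0.34 over all rows, from Nop58 to Pih1d1, an assembly factor, with 1.87 (limma adjusted p = 0.120). An unadjusted p under 0.05 from limma was reached by 2, both higher, near the 21.9% of all rows. Of 6 box H/ACA particle genes, 1 lay above and 1 below, against the same shares, with a median of -0.068. At this threshold 1 was lower and 0 were higher, against 2.27% and 21.9% of all rows. Naf1, an assembly factor, was at 52.60 and 59.63 TPM in +/+ and at 38.01 and 28.72 TPM in Chd5-/- samples (log2 fold change -0.74, adjusted p = 0.171), and Nhp2 had the highest value, 0.83 (adjusted p = 0.273).

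The 14 factors of nonsense-mediated decay, the pathway that removes spliced Gas5, had 10 genes above, against 46.3% of all rows, and 0 below, against 13%. Their median was 0.48, against 0.34 over all rows. Of these, 3 had an unadjusted p under 0.05, all higher, a share near the 21.9% of all rows. Upf1, the central helicase, was at 5.53 and 4.43 TPM in +/+ and at 11.30 and 10.41 TPM in Chd5-/- samples (log2 fold change 0.99, limma adjusted p = 0.143), and Magoh, of the exon junction complex, was lowest with -0.091 (adjusted p = 0.830). With the GC and length trends removed the median of the 14 was 0.11 and 0 had an unadjusted p under 0.05 with limma, against 11.2% of all rows. The excess of their median over that of all rows was 0.25 without +/+ replicate 1 and 0.018 without +/+ replicate 2. It was 0.067 without Chd5-/- replicate 1 and 0.11 without Chd5-/- replicate 2. In all of these lists 0 genes passed the adjusted threshold.

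**Figure D5:**
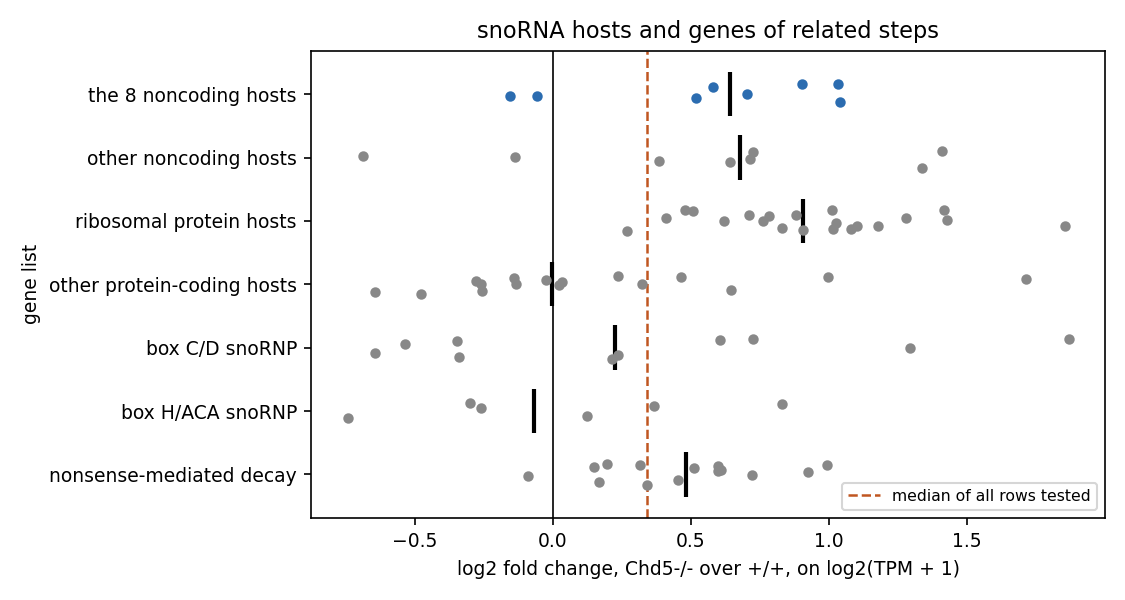
Log2 fold change, Chd5-/- over +/+, on log2(TPM + 1), of each tested gene in the 8 hosts (blue) and in 6 related lists (grey), with a black bar at the median of each list and a dashed line at the median of all rows tested, 0.34. The ribosomal protein hosts lie between 0.27 and 1.85, whereas the other protein-coding hosts lie on both sides of 0.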

How the data were processed

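Primary NSCs of 2 +/+ and 2 Chd5-/- mice were profiled by RNA-seq. Gene-level TPM, rounded to 2 decimals, was deposited in 1 table, made with Bowtie2 2.2.3 and RSEM 1.2.20 on mm10 per the submitters' processing notes. The annotation and the use of strand in counting are not given in the sources used here. TPM keeps no depth, so no counting interval was computed.

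The values were used as deposited. Those averaging 1 TPM or more entered limma 3.58.1 (R 4.3.3) on log2(TPM + 1) (pseudocount 1, eBayes with trend, two-sided, no covariates), with Benjamini-Hochberg adjustment over all 12576 rows. Replicates are separate cultures, each from 1 brain. The members and gene lists were chosen with earlier results of these data known. Named genes were the members, their resident snoRNAs with a row, protein-coding genes starting within 1 kb on the opposite strand, Chd5, the extremes of each list, and the 5 rows nearest to the most abundant member. Other genes were named after their values were seen, or as markers.

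Coordinates and sequences came from GENCODE M21 of GRCm38 and, for promoters and Snhg7, from RefSeq GRCm38.p6, and the authors may have used another annotation. GC content was found for 96.2% of the rows tested, and GC and length trends were removed by loess (span 0.5). Alternatives were other pseudocounts, minimums and scalings, trend removal, a block on replicate number, eBayes without trend, and each sample left out. Scripts were tested on simulated data. Python 3.11.15, pandas 2.3.3, numpy 2.4.6 and matplotlib 3.10.9 were used for tables and figures.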

Additional observations from a re-analysis of the deposited data

How the results depend on the processing

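Over 124 combinations of a host and an alternative, the direction and the side of the adjusted threshold were kept in 120. The exceptions were Snhg3, at 0.029 with GC and length trends removed, with and without the replicate block, and Snhg3 and Snhg6 without Chd5-/- replicate 2. Changing the minimum, adding a replicate block or dropping the eBayes trend leaves each log2 fold change as it was. These alternatives by themselves could not reverse a direction, so the 120 is not a count of separate checks of direction. With a sample left out, Snhg3 ranged from -0.34 to 0.23 and Snhg6 from -0.69 to 0.38. The cause was not tested.

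The number of hosts with an unadjusted p under 0.05, 3 as reported, was 1 with no minimum (19.1% of all rows in that fit), 1 of 6 with a minimum of 10 TPM (21.4%), 0 with median-of-ratios scaling (22.4%), 0 with quantile normalization (16.9%), 1 when rescaled without the 20 most abundant rows (21.4%), 1 of 7 with GC and length trends removed (11.2%), 2 with eBayes without trend (24.5%), where Snhg1 was lost, and 0 to 3 with a sample left out. The median of the hosts, 0.64 as reported, was 0.27 with median-of-ratios scaling, and from 0.30 to 0.97 with a sample left out. In such fits the lone sample of a genotype is assumed to vary like the others.

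The number of rows with an adjusted p under 0.05 in limma, 7 as reported, was 4 with a pseudocount of 0.1, 0 with no minimum (3473 at an unadjusted p under 0.05), 1 after quantile normalization, 2 with GC and length trends removed, and 0 to 1247 with a sample left out. It was 1247 without Chd5-/- replicate 1, 1086 without Chd5-/- replicate 2 and 0 without either +/+ sample.

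Whether the replicate numbers pair the samples across genotypes is not stated. The difference between replicate 1 and 2 in +/+ correlated at -0.15 with that in Chd5-/- across 12576 rows. This value cannot decide it, because it rests on 1 difference per genotype. With the number as a block, 0 rows passed the adjusted threshold (2289 at an unadjusted p under 0.05), and 2 hosts, Snhg1 and Snhg11, had an unadjusted p under 0.05, against 18.2% of all rows. With the block and the trends removed together, 1 of 7 hosts, Snhg1, had an unadjusted p under 0.05, against 7.30% of all rows. In that fit 0 rows passed the adjusted threshold. With the numbers crossed, an alternative added after the data were seen, 5 rows passed the adjusted threshold. In that fit 3 hosts, Snhg7, Snhg11 and Gas5 but not Snhg1, had an unadjusted p under 0.05, against 24.6% of all rows. Depth is unknown, and the precision rests on 2 samples per genotype.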

Other observations

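Among 8198 rows that averaged 10 TPM or more, the 5 whose profile over the 4 samples was nearest to that of Gas5, by Euclidean distance of centred log2(TPM + 1), were Prr11 (0.0648), Prc1 (0.0713), Tpx2 (0.0968), Kif23 (0.105) and Cotl1 (0.116). Prc1 was at 77.34 and 46.05 TPM in +/+ NSCs and at 81.42 and 126.85 TPM in Chd5-/- NSCs, and Tpx2 at 43.45 and 24.84 and at 43.39 and 71.56 TPM. As for Gas5, Chd5-/- replicate 2 was the highest and +/+ replicate 2 the lowest sample for each of these. The rows were chosen by their nearness to this profile, so the shared order is not a separate result. The likeness rests on 4 samples and is a description of these libraries.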
